A study of Rattus norvegicus with 12 samples.

Results

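The 10 genes described here belong to the stress program that the transcription factors ATF4 and CHOP run in mammalian cells: Atf4, Ddit3 (which encodes CHOP), Atf3, Nupr1, Trib3, Ppp1r15a, Sesn2, Asns, Psat1 and Mthfd2. They are 10 of the 14218 named genes on a rat Affymetrix array of 31099 probe sets, and each was read from its probe set with the highest mean signal, out of 13 probe sets annotated to the 10 symbols. They were chosen by the difference between the signals of arrays with and without RU486 in the second of the study's 2 experiments. That difference is therefore given as a description, with no test. Tests are given for other comparisons of these genes and, in the RU486 comparison, for other genes. The second-experiment arrays without RU486 entered the choice and are also part of those other comparisons. The tests of the 10 genes are therefore not independent of the choice.

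Cultured ventricular cardiomyocytes of 1-day-old Wistar rats were kept for 24 h in OPTI-MEM and exposed for 3 h to a steroid or to its ethanol vehicle. In the second experiment each condition was also run after pretreatment with 10 µM RU486 (mifepristone), an antagonist of the glucocorticoid receptor. That gave 4 RU486 groups of 1 array each, cortivazol (CVZ) plus RU486, corticosterone (COR) plus RU486, aldosterone (ALD) plus RU486 and RU486 alone. Their partners without RU486, CVZ, COR, ALD and vehicle, had 1 array in the second and 1 in the first experiment (n = 2 each), 12 arrays in all. CVZ is a synthetic glucocorticoid, COR the main glucocorticoid of rats and ALD the main mineralocorticoid. Doses of the steroids are not in the labels. The labels do not say whether the 2 experiments used separate preparations of cells, and the p-values then reflect array-to-array spread that may be technical.

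ATF4 is translated preferentially when kinases that sense amino acid shortage, misfolded protein in the endoplasmic reticulum, haem deficiency or viral RNA phosphorylate the initiation factor eIF2. It then raises genes of amino acid supply and, with CHOP and other C/EBP-family partners, genes that restrain growth or, under lasting stress, promote cell death. Because ATF4 is controlled largely at translation, its mRNA is only a partial readout of its activity. ATF4 and its C/EBP-family partners are known to act through a composite C/EBP-ATF element, and related factors through the cAMP response element.

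The 250 bases upstream of each start site were searched for these 2 elements and for the endoplasmic reticulum stress element, in RefSeq promoters of build GRCr8, which held 9 of the 10 genes. The windows of Asns (chr4:36769416-36769665) and Psat1 (chr1:222645409-222645658) lay inside the spans listed for these minus-strand genes, which end at 36769970 and 222646187. For these 2 genes the bases upstream of the listed span were not searched. TGATGNAA, the composite element, was found on either strand in Nupr1 and Trib3, 2 of 9, against 3.4% of 33469 rat promoters. TGACGTCA, the cAMP response element, was found in Ppp1r15a, 1 of 9, against 1.59%. The endoplasmic reticulum stress element was found in 0 of 9, against 0.0657%. No match overlapped another searched motif. The promoters with a match are printed with that of Ddit3, the gene with the widest RU486 difference of the 10. They are shown 5′ to 3′ on the gene's strand and end at the base before the start site, with the match in capitals. Ddit3 lies on the plus strand and its promoter spans chr7:65001445-65001694. The other 3 lie on the minus strand, with promoters at chr3:161275534-161275783 for Trib3, chr1:190645902-190646151 for Nupr1 and chr1:105139597-105139846 for Ppp1r15a.
Ddit3: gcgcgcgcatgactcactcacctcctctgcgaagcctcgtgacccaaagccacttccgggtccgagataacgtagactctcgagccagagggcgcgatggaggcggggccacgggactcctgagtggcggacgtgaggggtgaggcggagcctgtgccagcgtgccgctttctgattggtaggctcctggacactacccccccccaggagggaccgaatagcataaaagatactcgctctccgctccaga
Trib3: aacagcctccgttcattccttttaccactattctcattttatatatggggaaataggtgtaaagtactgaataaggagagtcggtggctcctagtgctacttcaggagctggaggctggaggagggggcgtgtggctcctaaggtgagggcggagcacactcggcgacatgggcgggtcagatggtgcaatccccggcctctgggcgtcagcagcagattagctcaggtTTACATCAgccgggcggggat
Nupr1: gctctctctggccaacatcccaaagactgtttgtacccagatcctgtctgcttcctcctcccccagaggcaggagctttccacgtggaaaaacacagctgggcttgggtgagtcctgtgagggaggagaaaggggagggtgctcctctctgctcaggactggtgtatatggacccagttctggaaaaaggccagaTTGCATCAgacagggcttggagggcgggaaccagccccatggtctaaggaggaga
Ppp1r15a: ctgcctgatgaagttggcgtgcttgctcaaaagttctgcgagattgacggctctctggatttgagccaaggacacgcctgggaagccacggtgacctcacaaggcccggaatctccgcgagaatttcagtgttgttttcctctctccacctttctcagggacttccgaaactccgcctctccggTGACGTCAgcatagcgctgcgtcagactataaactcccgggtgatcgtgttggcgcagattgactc
The match in Trib3, TTACATCA, lay 21 to 14 bases upstream of the start site and that in Nupr1, TTGCATCA, 55 to 48 bases upstream. Both are the reverse complement of the motif as searched. The match in Ppp1r15a lay 66 to 59 bases upstream. A match describes letters in this window only. Binding was not measured.

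Signals are MAS5 values divided by the median of their array, so that 1 is the median probe set of that array. Without RU486 the cultures expressed the cardiomyocyte markers at summed signals of 2753 to 3068 in the second and 2907 to 3182 in the first experiment (14 markers). Markers of fibroblasts, smooth muscle, endothelium, macrophages, erythroid cells and epicardium were also measured, and their values stand beside the results they move with. Before division the array medians were 35.4 to 37.7 on the 4 RU486 arrays, 22.4 to 33.7 on the 4 other arrays of the second experiment and 21.1 to 25.5 in the first. The part of this difference in the results was not tested.

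With RU486, 9 of the 10 genes had a higher signal on all 4 arrays than on any of the 4 second-experiment arrays without it. Among all 18625 tested probe sets, 5.41% had this pattern, and 12.7% were higher in 4 of 4 pairs of arrays. The choice of the genes used this contrast, so nothing is read from the count. Averaged over the 4 pairs, the log2 difference ran from 0.23 for Nupr1 to 1.44 for Ddit3, with a median over the genes of 0.61, against a median of 0.01 for all tested probe sets. Of the 40 gene and pair combinations, 38 were higher with RU486. The mean difference was at least 1.5-fold for 6 genes (1.95% of all), and 6 genes also had every RU486 array above all 8 arrays without it, those of the first experiment included (2.07% of all).

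**Figure D1:**
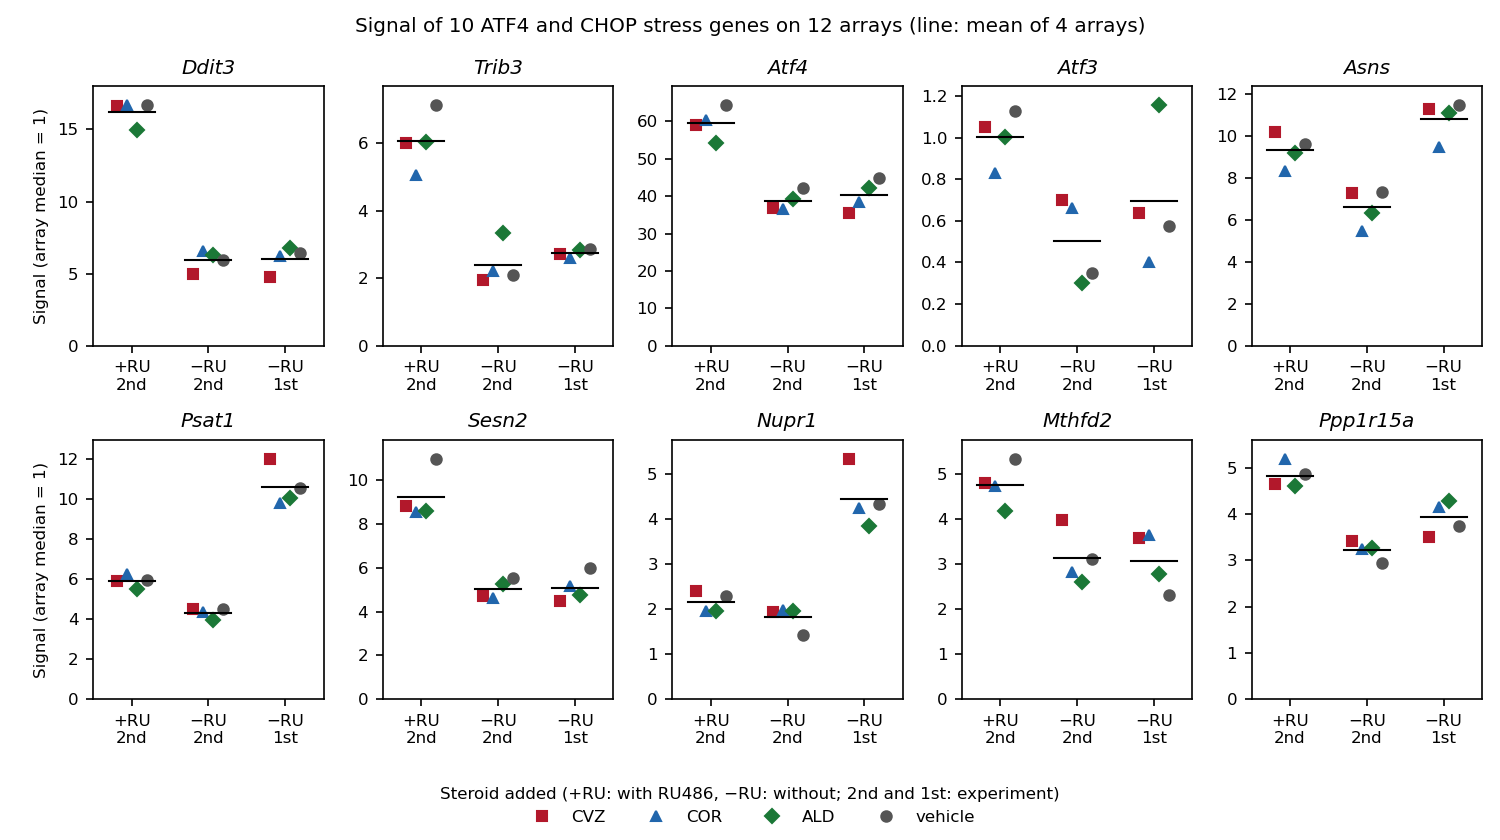
Signal of each of the 10 genes on the 12 arrays (vertical axes, linear, array median = 1), for the 4 RU486 arrays, the 4 second-experiment arrays without RU486 and the 4 first-experiment arrays, with symbols for the added steroid and a line at the mean of 4 arrays. The RU486 arrays of Ddit3 lie at 14.9 to 16.7, above all 8 arrays without RU486, and those of Psat1 lie between the 2 experiments' arrays without it.

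Ddit3 encodes CHOP, a C/EBP-family factor that ATF4 induces. It had signals of 16.6 with CVZ plus RU486, 16.7 with COR plus RU486, 14.9 with ALD plus RU486 and 16.7 with RU486 alone, against 4.98 with CVZ, 6.56 with COR, 6.28 with ALD and 5.95 with vehicle in the second experiment. The first experiment gave 4.76 with CVZ, 6.22 with COR, 6.79 with ALD and 6.41 with vehicle. The RU486 arrays form a narrow band well clear of the other 8, which overlap each other. The means were 16.2 ± 0.854 with RU486 and 5.94 ± 0.691 without (SD over the 4 steroid backgrounds), and the log2 difference within pairs was 1.73 with CVZ, 1.34 with COR, 1.24 with ALD and 1.48 with vehicle. Its mean, 1.44 ± 0.21 (SD, n = 4 pairs), or 2.72-fold, was the 2nd highest of the 18625 tested probe sets. The gene lies at chr7:65001695-65006517 (GRCr8).

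Trib3 encodes a pseudokinase that ATF4 and CHOP induce and that in turn binds ATF4 and restrains it. Its signals were 6.02 with CVZ plus RU486, 5.07 with COR plus RU486, 6.03 with ALD plus RU486 and 7.12 with RU486 alone, against 1.95 with CVZ, 2.22 with COR, 3.34 with ALD and 2.11 with vehicle. In the first experiment the range was 2.61 to 2.85. Every RU486 array was above all others, and the highest of those without RU486 was the second-experiment ALD array. The pair differences were 1.59 with CVZ, 1.17 with COR, 0.84 with ALD and 1.72 with vehicle, a mean of 1.33 ± 0.40 on the log2 scale, rank 9 of all tested probe sets. Another pair of Trib3 probe sets had mean differences of 1.58 and 1.32, and on each the RU486 arrays lay above all 8 others.

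Atf4 itself had signals of 59.1 with CVZ plus RU486, 60.4 with COR plus RU486, 54.1 with ALD plus RU486 and 64.4 with RU486 alone. The arrays without RU486 gave 36.8 with CVZ, 36.7 with COR, 39.3 with ALD and 42.2 with vehicle in the second and 35.6 to 44.9 in the first experiment. The groups did not overlap. The mean pair difference was 0.62 ± 0.11, or 1.53-fold, rank 304, so the mRNA of the regulator had a smaller difference than Ddit3, Trib3 or Sesn2 in each of the 4 backgrounds. Atf3, a stress-induced factor of the same bZIP class, lay at or below the median of the arrays' probe sets on most arrays. Its values were 1.05, 0.83, 1.00 and 1.13 with CVZ, COR, ALD and vehicle on the RU486 arrays, against 0.701, 0.662, 0.300 and 0.349 on their partners. In the first experiment it reached 1.16 with ALD, above all 4 RU486 arrays, and its pair differences varied most of the 10 genes, between 0.30 and 1.54 (mean 0.97 ± 0.65).

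Nupr1, a small chromatin-associated protein that stress induces, stood apart from the rest. Its signals were 2.40 with CVZ plus RU486, 1.95 with COR plus RU486, 1.95 with ALD plus RU486 and 2.30 with RU486 alone, against 1.94 with CVZ, 1.99 with COR, 1.96 with ALD and 1.42 with vehicle. The groups overlapped, with pair differences of 0.30 with CVZ, −0.03 with COR, −0.01 with ALD and 0.67 with vehicle. Its mean difference of 0.23 ± 0.33 ranked 2914 of the 18625 tested probe sets.

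Ppp1r15a (GADD34) brings protein phosphatase 1 to eIF2 and so ends the signal that ATF4 depends on. It had signals of 4.64 with CVZ plus RU486, 5.19 with COR plus RU486, 4.61 with ALD plus RU486 and 4.87 with RU486 alone, against 3.41, 3.24 and 3.27 with CVZ, COR and ALD and 2.95 with vehicle. The first experiment gave 3.51 to 4.28, below every RU486 array. The mean pair difference was 0.58 ± 0.13. Sesn2, a leucine sensor that restrains the growth kinase mTORC1, had 8.80, 8.52, 8.59 and 10.9 with CVZ, COR, ALD and vehicle on the RU486 arrays, against 4.70, 4.599, 5.23 and 5.51 on their partners, with 4.48 to 5.96 in the first experiment. Its pair differences lay between 0.71 and 0.98 (mean 0.87 ± 0.11, or 1.82-fold), the narrow range being close to that of Atf4. A weaker Sesn2 probe set, below the filter on low signals, had a mean difference of 1.69.

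The 3 enzymes of the group make asparagine (Asns), a precursor of serine (Psat1) and one-carbon units on mitochondrial folate (Mthfd2). Mthfd2 had 4.79, 4.72, 4.17 and 5.33 with CVZ, COR, ALD and vehicle on the RU486 arrays, against 3.98, 2.82, 2.60 and 3.11 on their partners, and 2.30 to 3.64 in the first experiment. The CVZ array was the highest of the second-experiment arrays without RU486, and the pair with CVZ had the smallest difference, 0.26, against 0.67 to 0.77 in the others. Asns had 10.2, 8.31, 9.18 and 9.61 with CVZ, COR, ALD and vehicle on the RU486 arrays, against 7.26, 5.46, 6.33 and 7.34 on their partners. For Psat1 the values were 5.91, 6.24, 5.52 and 5.94, against 4.51, 4.38, 3.95 and 4.49. For both genes the groups did not overlap within the second experiment, with mean pair differences of 0.50 ± 0.09 for Asns and 0.44 ± 0.06 for Psat1, the lowest after Nupr1.

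**Figure D2:**
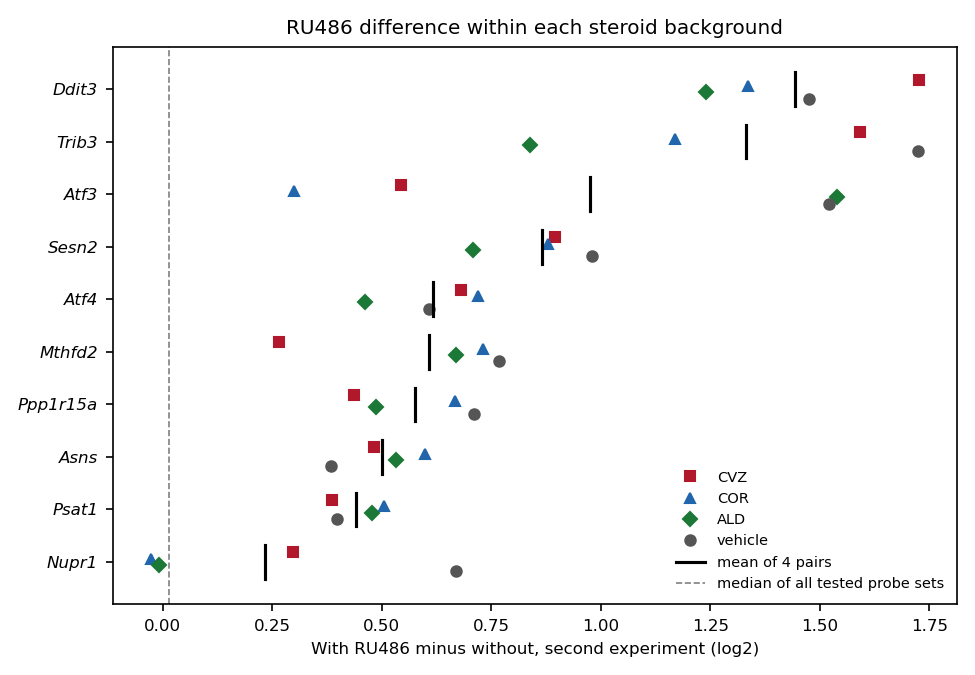
Log2 difference of each RU486 array minus its partner without RU486 in the second experiment (horizontal axis), for the 10 genes ordered by their mean, with symbols for the steroid and a line at the mean of the 4 pairs. Ddit3 and Trib3 have the widest mean differences, 1.44 and 1.33, and Nupr1 the smallest, 0.23, with its pairs with COR and ALD next to 0.

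The difference was present in all 4 steroid backgrounds. The median over the 10 genes was 0.51 with CVZ, 0.69 with COR, 0.60 with ALD and 0.74 with vehicle. Among the RU486 arrays, the median over the genes of the difference from RU486 alone was −0.08 with CVZ plus RU486, −0.19 with COR plus RU486 and −0.19 with ALD plus RU486. These are single arrays that share the RU486 array as their partner, so they have no test and are not independent of each other. All of them entered the choice of the genes, and the same difference was not computed for all probe sets, so nothing is read from these medians. Beside the RU486 difference, cardiomyocyte markers summed to 2448 to 2744 on the RU486 arrays, against 2753 to 3068 on the second-experiment arrays without RU486. Of the 14 markers, 5 were called lower by the limma test (adjusted p below 0.05), with a median log2 difference of −0.16 over the list. Of all tested probe sets 2.16% were called lower. After quantile normalization 0 of the markers were called, with a median of 0.01, and without the CVZ array of the second experiment also 0. Fibroblast markers summed to 178 to 193 with RU486, against 196 to 205 without, and 0 of 10 tested passed. Smooth muscle markers summed to 98.2 to 108 with RU486, against 108 to 121 without. Of 7 tested, Mylk (−0.71) and Tagln (−0.50) were lower (median −0.39), and 0 passed without the CVZ or CVZ plus RU486 array and 1 without the COR array of that experiment. Endothelial markers summed to 10.2 to 13.3, against 9.57 to 21.7, and 1 of 6 was lower, Kdr at −0.91. Kdr was called higher with the steroids alone, by 1.83 with CVZ, 2.00 with COR and 1.41 with ALD. Its signal was 2.30 with RU486 alone against 2.45 with vehicle. Esam (0.25) was higher in 4 of 4 pairs and did not pass. Macrophage, erythroid and epicardial markers had 0 calls. The part of these shifts in the stress genes was not tested.

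The 2 experiments differed in some of these genes without any RU486, and all RU486 arrays lie in the second. The choice of the genes also used the second-experiment arrays compared here. Psat1 and Nupr1 were the clearest. Psat1 had 4.51, 4.38, 3.95 and 4.49 with CVZ, COR, ALD and vehicle in the second experiment, against 11.99, 9.80, 10.1 and 10.6 in the first. Nupr1 had 1.94, 1.99, 1.96 and 1.42, against 5.33, 4.24, 3.84 and 4.33. In the limma fit over all arrays Psat1 fell by 1.28 ± 0.09 on the log2 scale (SE, adjusted p = 8.4e-08) and Nupr1 fell by 1.25 ± 0.14 (adjusted p = 7.5e-06) in the second relative to the first experiment, where 38.9% of probe sets were called, 28.2% as lower.

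Asns, with 5.46 to 7.34 in the second and 9.47 to 11.5 in the first experiment, fell by 0.71 ± 0.09 (limma, adjusted p = 1.0e-05). The RU486 arrays of Psat1 and Nupr1, although higher than or overlapping their partners, lay below every first-experiment array, at 5.52 to 6.24 against 9.80 to 11.99 for Psat1 and 1.95 to 2.40 against 3.84 to 5.33 for Nupr1. Of all tested probe sets 27.1% had this pattern. Those of Asns, at 8.31 to 10.2, overlapped the first experiment's 9.47 to 11.5. The remaining 7 genes were not called. Ppp1r15a was, with Psat1, Nupr1 and Asns, among 4 genes with all second-experiment arrays without RU486 below all of the first, a pattern of 24.2% of probe sets. Ddit3 averaged 5.94 ± 0.691 in the second and 6.04 ± 0.887 in the first experiment without RU486 (SD, n = 4 arrays each), a fitted difference of −0.02 with a 95% interval of −0.20 to 0.17. Sesn2 differed by −0.02 (−0.22 to 0.19) and Mthfd2 by 0.03 (−0.26 to 0.32). Ppp1r15a differed by −0.28 (limma, adjusted p = 0.066), a value that passed, at −0.36, when either CVZ array was left out. Trib3, at −0.22 (adjusted p = 0.22), passed at −0.37 without the ALD array of the first experiment.

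The experiment comparison depends on how arrays are scaled. Of the probe sets called, 1995 were higher and 5250 lower in the second experiment, against 3553 and 3240 after quantile normalization and 4423 and 3026 after trimmed-mean scaling, and the median of all tested probe sets was −0.10, 0.03 and 0.10 under the 3 scalings. Psat1, Nupr1 and Asns were lower under each of them, by at least 1.06, 1.05 and 0.49. Atf4, at −0.05 (limma, adjusted p = 0.49), was called higher under both alternatives, at 0.23 (adjusted p = 0.0033) after quantile normalization and 0.15 (adjusted p = 0.035) after trimmed-mean scaling. Beside these differences, fibroblast markers summed to 196 to 205 in the second experiment without RU486, against 368 to 451 in the first, and 9 of 10 tested were lower. Erythroid markers summed to 27.9 to 33.9, against 86.2 to 124, with both tested lower. Endothelial markers summed to 9.57 to 21.7, against 18.7 to 34.5, and 3 of 6 were lower (median −0.70), or 4 with some single arrays left out. Epicardial markers summed to 5.00 to 6.08, against 8.79 to 11.1, with 2 of 6 lower. Smooth muscle markers had 1 higher and 2 lower of 7, and macrophage markers 2 lower of 7, counts that became 3 and 2 for smooth muscle under both other scalings and 1 and 1 for macrophages after trimmed-mean scaling. The part of these markers in the 3 genes was not tested. In bulk RNA, fewer cells of a type and less RNA per cell cannot be told apart.

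**Figure D3:**
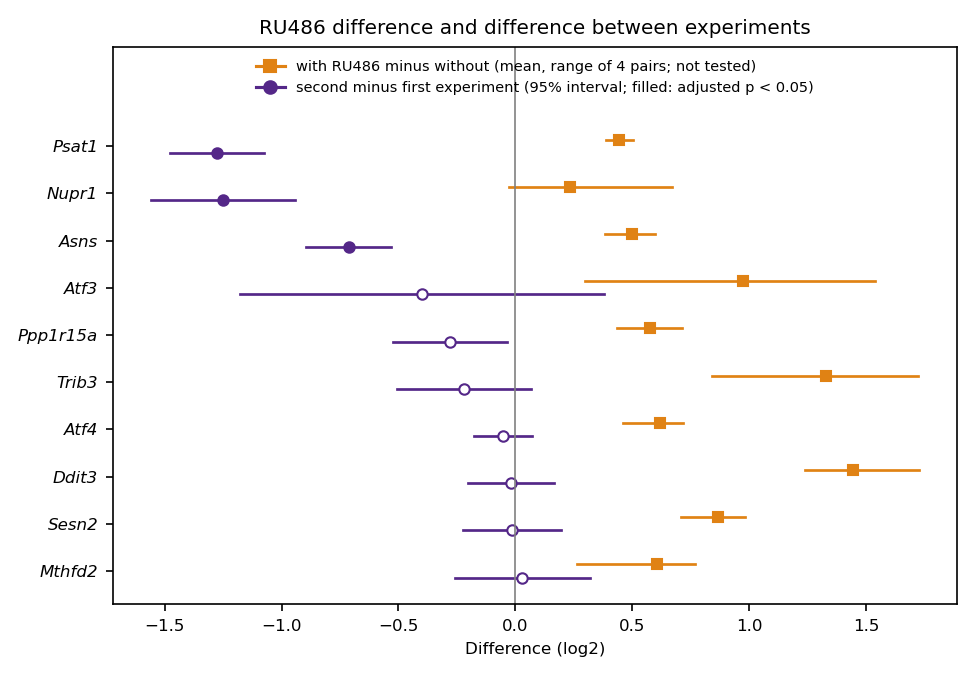
Log2 differences (horizontal axis) for the 10 genes, each gene a row, ordered by the difference between experiments. Circles show the second minus the first experiment without RU486 with its 95% interval, filled where the limma test passed at an adjusted p below 0.05. Squares show the mean RU486 difference within the second experiment with the range of its 4 pairs, not tested. Psat1 (−1.28), Nupr1 (−1.25) and Asns (−0.71) have filled circles left of 0, with squares at 0.44, 0.23 and 0.50. Ddit3 and Trib3 have the squares furthest to the right, at 1.44 and 1.33, with circles whose intervals include 0.

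The steroids alone, without RU486, were compared with vehicle to ask whether activating the corticosteroid receptors moved the same genes. None of the 10 genes passed for CVZ, COR or ALD, 0 of 30 comparisons with the limma test at an adjusted p below 0.05. At an unadjusted p below 0.05, 4 passed for CVZ (Ddit3, Atf4, Sesn2 and Mthfd2), 2 for COR (Atf4 and Asns) and 0 for ALD, against 18.2%, 13.1% and 9.15% of all. After adjustment 7.96% of all were called for CVZ, 3.39% for COR and 0.95% for ALD. These groups have 2 arrays each, and a value that misses the threshold does not show that a gene did not respond.

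Atf4 came nearest. Its signal was 36.8 with CVZ and 42.2 with vehicle in the second experiment and 35.6 with CVZ and 44.9 with vehicle in the first, a fitted difference of −0.27 ± 0.08 (limma, adjusted p = 0.062, 95% interval −0.44 to −0.09). It was lower than vehicle in both experiments, by 0.20 and 0.34. This value passed after quantile normalization (−0.37, adjusted p = 0.0042), after trimmed-mean scaling (−0.33, adjusted p = 0.012) and with the stricter filter at the 60th percentile (−0.27, adjusted p = 0.045). With COR it was −0.21 (−0.39 to −0.04), which passed after quantile normalization (−0.28, adjusted p = 0.044), and with ALD −0.10 (−0.27 to 0.08).

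Ddit3 was 4.98 with CVZ and 5.95 with vehicle in the second experiment, and 4.76 with CVZ and 6.41 with vehicle in the first, −0.34 ± 0.12 in the fit (limma, adjusted p = 0.13, interval −0.60 to −0.08). It passed under trimmed-mean scaling alone (−0.40, adjusted p = 0.045). Its differences with COR and ALD were 0.05 and 0.08. Sesn2 was −0.32 with CVZ (−0.61 to −0.02), −0.23 with COR and −0.20 with ALD, negative in both experiments for each steroid. Mthfd2 ran the other way, at 0.48 with CVZ (0.08 to 0.89, adjusted p = 0.17 by limma), 0.25 with COR and 0.00 with ALD. Asns was −0.35 with COR (−0.61 to −0.09, adjusted p = 0.18 by limma), against −0.02 with CVZ and −0.13 with ALD. Atf3 had the widest intervals, for example −0.59 to 1.61 with CVZ. Trib3, Psat1, Nupr1 and Ppp1r15a had intervals that included 0 for all 3 steroids.

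**Figure D4:**
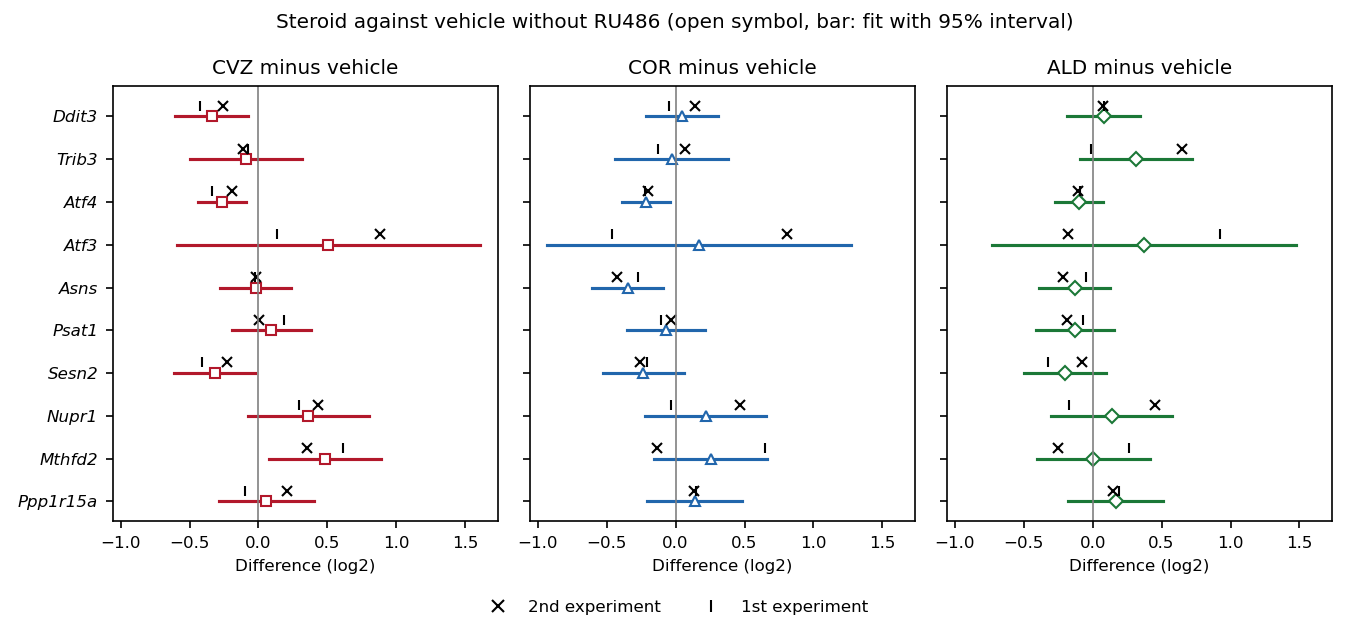
Log2 difference of each steroid minus vehicle without RU486 (horizontal axes) for the 10 genes: fitted value with its 95% interval (open symbol and bar), and the value within the second (cross) and first (tick) experiment. The intervals of Atf4 (−0.44 to −0.09) and Ddit3 (−0.60 to −0.08) with CVZ lie below 0, and none of the 30 values passed after adjustment.

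Other genes that ATF4 and CHOP are known to regulate were followed in lists drawn up with earlier results of these data known. In the RU486 comparison 4.02% of probe sets were called, 1.85% higher and 2.16% lower. Of 19 tested amino acid genes, 5 rose and 1 fell, with a median log2 difference of 0.30. Slc3a2, the heavy chain of the large neutral amino acid transporters, averaged 38.3 ± 3.32 with RU486 and 22.6 ± 10.1 without (SD over the 4 backgrounds), 0.85 ± 0.10 in the fit (limma, adjusted p = 0.00017). The cationic amino acid transporter Slc7a1 rose by 0.63 ± 0.08 and the neutral amino acid transporter Slc1a4 by 0.54 ± 0.09. Got1, an aspartate aminotransferase, was lower, at −0.47 ± 0.07. Its pair differences ran from −1.05 with CVZ, 40.6 with RU486 against 83.9 without, to −0.05 with vehicle, 42.8 against 44.2. Slc38a2 (0.19) and Shmt2 (0.31), of high signal, did not pass.

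Of 18 tested regulators and effectors, 5 rose and 0 fell, with a median of 0.31. Chac1, an enzyme that degrades glutathione and a target of ATF4 and CHOP, averaged 6.38 ± 0.40 with RU486 and 2.496 ± 0.543 without, 1.35 ± 0.15 in the fit (limma, adjusted p = 7.6e-05). The secreted stress factor Gdf15 averaged 3.89 ± 0.997 with RU486 and 1.95 ± 0.310 without, 0.95 ± 0.15 (limma, adjusted p = 0.0012). Both were higher in 4 of 4 pairs. Herpud1, of the degradation pathway of the endoplasmic reticulum, was −0.24 and did not pass, a mean over pairs of opposite sign that are given with the steroid values.

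The arms of the wider stress response were not alike in these counts. Of 19 cytosolic aminoacyl-tRNA synthetases, which charge tRNAs and many of which ATF4 raises, 7 rose and 0 fell (median 0.20), with Nars1 at 0.39 ± 0.07. Of 19 endoplasmic reticulum chaperones and folding genes of the ATF6 and XBP1 arms, 2 rose and 1 fell (median 0.09). Dnajb9, a co-chaperone that XBP1 induces, rose by 0.70 ± 0.08 (limma, adjusted p = 0.00013), while the main chaperone Hspa5 was 0.13 and did not pass. Of 16 genes for eIF2, its kinases, phosphatase and exchange factor, 1 rose (median 0.06). In mitochondrial stress genes 0 of 11 rose and 1 fell, and in heat shock genes 0 of 8 rose and 1 fell. Differences between lists were not tested.

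The RU486 groups are single arrays, and the errors behind these list calls borrow from all probe sets. Without the mean-variance trend 0 of the amino acid genes, regulators and synthetases were called, and without the experiment block also 0. A fit of the second experiment alone called 1, 1 and 0 of them. Leaving out the CVZ array of the second experiment gave 3 rises for amino acid genes, 2 for regulators and 3 for synthetases. Leaving out its COR array gave 3, 2 and 2, and leaving out the COR plus RU486 array gave 3 in each list. The regulators had 3 rises without the CVZ plus RU486 array, the ALD plus RU486 array or the ALD array of that experiment, and 4 falls besides the rises without the RU486 array or the second-experiment vehicle array. The synthetases had 4, 3 and 3 rises without the CVZ plus RU486, RU486 and second-experiment vehicle arrays. Slc3a2, Slc7a1, Slc1a4, Chac1, Gdf15, Dnajb9 and Nars1 passed with any single array left out. The Got1 call was lost without the CVZ or CVZ plus RU486 array of the second experiment, which left 0 falls in its list. In the chaperone list the second rise, Xbp1 at 0.26, was lost without any of 7 single arrays, which left 1 rise. The fall, Edem1 at −0.51, was lost without the CVZ or CVZ plus RU486 array, which left 0 falls. The Edem1 value is a mean over pairs of opposite sign. Its signal was 8.94 with RU486 alone against 7.06 with vehicle, and it was lower with RU486 in the steroid pairs. The falls of Hspd1 (−0.21) in the mitochondrial and Cryab (−0.23) in the heat shock list were lost without the CVZ, COR or CVZ plus RU486 array, Hspd1 also without the COR plus RU486 or first-experiment CVZ array, which left 0 falls. The rise in the eIF2 list was Eif2s2, at 0.26, and was lost without the COR, CVZ, COR plus RU486, CVZ plus RU486, RU486 or vehicle array of that experiment.

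**Figure D5:**
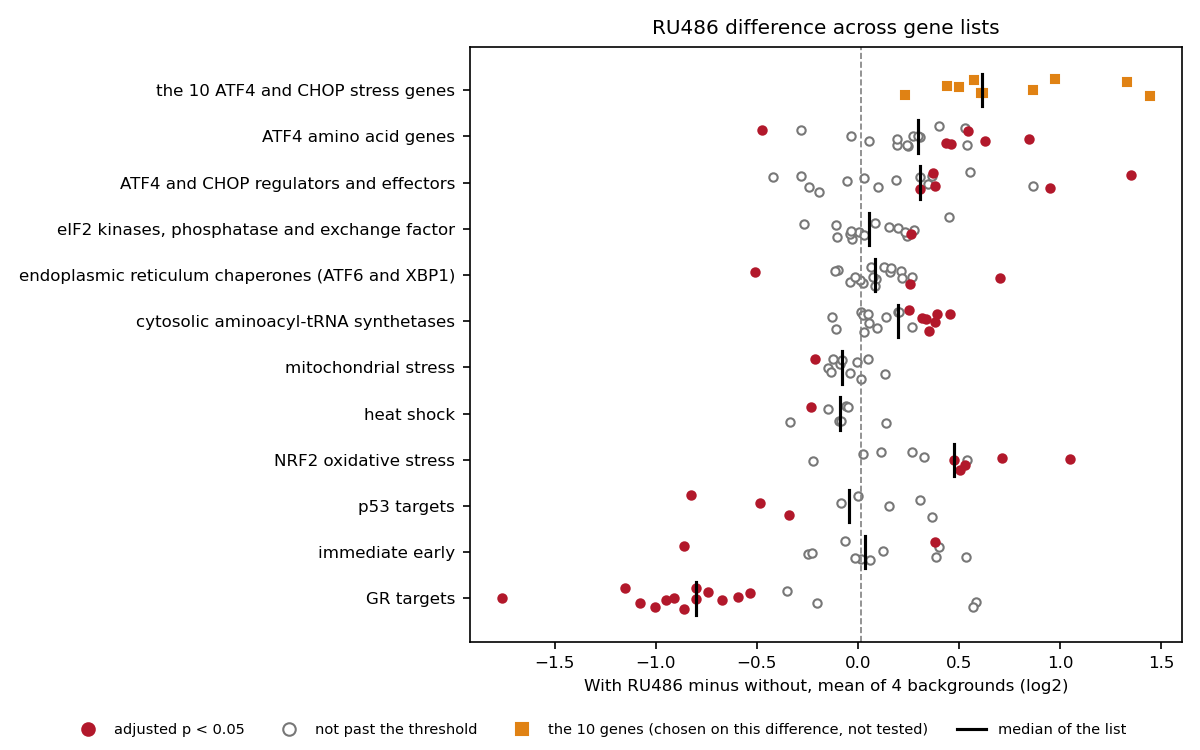
Log2 difference with RU486 minus without, mean of 4 backgrounds (horizontal axis), for the 10 genes (squares, not tested) and the genes of 11 lists (circles, filled where the limma test passed at an adjusted p below 0.05), with a bar at each list's median. Medians are 0.30 for amino acid genes, 0.31 for regulators and effectors, 0.20 for synthetases and 0.06 for eIF2 genes, and the dashed line marks the median of all tested probe sets, 0.01.

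The steroids alone also moved regulators and amino acid genes, and of the amino acid genes Slc3a2 and Got1 were called in the RU486 comparison too. Of 18 regulators and effectors, 6 rose with CVZ (background 4.77%), 5 with COR (2.44%) and 4 with ALD (0.87%). Herpud1 rose by 2.13 ± 0.10 with CVZ (limma, adjusted p = 6.5e-10), 1.63 ± 0.10 with COR and 1.02 ± 0.10 with ALD. Cebpb, a C/EBP factor, rose by 2.24 ± 0.16, 1.74 ± 0.16 and 1.15 ± 0.16 with CVZ, COR and ALD. Ddit4, an inhibitor of mTORC1, rose by 1.26 ± 0.12 with CVZ and 1.07 ± 0.12 with COR, and by 0.72 ± 0.12 with ALD (limma, adjusted p = 0.0061), a call lost without the vehicle or ALD array of the first experiment. On the RU486 arrays the averages of these 3 genes were below those of their partners, 36.3 ± 2.97 against 50.1 ± 29.3 for Herpud1, 4.23 ± 0.351 against 6.72 ± 4.24 for Cebpb and 7.48 ± 0.799 against 8.97 ± 3.19 for Ddit4. None of the 3 passed the RU486 test. Each was lower with RU486 in the 3 steroid pairs and higher in the vehicle pair. With RU486 alone, against vehicle, Herpud1 had 33.5 against 17.4, a log2 difference of 0.95. Cebpb had 3.71 against 2.17 (0.75) and Ddit4 7.53 against 5.10 (0.56), each on 1 pair of arrays with no test.

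Of 19 amino acid genes, 4 rose with CVZ (Cth, Slc7a5, Slc3a2 and Got1), 1 with COR (Got1) and 0 with ALD. Slc7a5, the light chain that pairs with Slc3a2, rose by 1.19 ± 0.17 and Slc3a2 by 0.88 ± 0.15 with CVZ (limma, adjusted p = 0.00016 and 0.00077). Slc3a2 was thus called both with CVZ without RU486 and in the RU486 comparison. Its signal was 40.5 with CVZ plus RU486, 39.0 with COR plus RU486, 33.5 with ALD plus RU486 and 40.3 with RU486 alone, against 37.6 with CVZ, 19.1 with COR, 15.1 with ALD and 18.6 with vehicle. The CVZ array alone of the second-experiment arrays without RU486 reached the RU486 range. The call of Cth (1.54) was lost without either CVZ array or the first vehicle array, and that of Got1 with COR (0.45) without either COR array or the second vehicle array. Of 19 endoplasmic reticulum chaperones and folding genes, 2 rose with CVZ, 2 with COR and 0 with ALD. The shares of all tested probe sets were 4.77%, 2.44% and 0.87%. The 2 genes were Edem1 (1.68 with CVZ and 0.89 with COR) and Manf (0.40 and 0.47). Both Manf calls were lost without either vehicle array. Synthetases and eIF2 genes had 0 calls with any steroid.

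The genes whose log2 signal followed the mean of the 10 most closely over the 12 arrays, among 10070 other named genes, were Fv1 (Pearson r = 0.936), Jade1 (0.904), Kansl2 (0.902), Aars1 (0.890), Chac1 (0.881), Aldh18a1 (0.878), Ankrd12 (0.872) and Fnip2 (0.860). Those closest to Ddit3 alone were Socs6 (0.953), Hmox1 (0.953), Ptprr (0.941), Gclm (0.926) and Slc1a4 (0.918). Hmox1 degrades haem and Gclm is a subunit of the enzyme that starts glutathione synthesis. The 12 arrays share experiments and RU486 treatment, so the points are not independent and no p is given. The 10 genes were chosen by their RU486 difference on these same arrays. A pattern shared among them, or with other genes that differ with RU486, follows in part from that choice. The correlations are a description only. Within the group, Ppp1r15a followed the mean of the other 9 most closely (r = 0.916), before Trib3 (0.813), Atf4 (0.787) and Ddit3 (0.758). Psat1 (0.246) and Nupr1 (0.080), the 2 genes with the widest gap between experiments, followed it least.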

How the data were processed

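RNA of 12 neonatal rat cardiomyocyte cultures was hybridised to 12 Affymetrix arrays. Per the submitters' processing notes the deposited values are MAS5 signals, an intensity on a linear scale. Tested on the file, each array had a median of 1, so the authors had divided each array's intensity values by its own median. Multiplied by 1 constant per array, the values were multiples of 0.1 (within 0.002), and that constant is the median before division. Arrays have no sequencing depth, and their number limits the precision.

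The platform annotation, updated to current rat symbols, named the probe sets: 20832 had 1 symbol, 436 several and 9831 none. A pseudocount of 0.0696 (10th percentile of all values) was added before log2. Control probe sets (57) were set aside. Tested were probe sets whose log2 values averaged over the 40th percentile (0.63 as signal plus pseudocount): 18625 probe sets, 10082 named genes, all 10 stress genes among them. Models were fitted in limma 3.58.1 (R 4.3.3) by lmFit and by eBayes with its trend option, over the 8 groups with the experiment as a block, leaving 3 residual degrees of freedom beside 12.2 from the prior. The fit assumes that single RU486 arrays vary as the other groups do. P-values were adjusted by Benjamini-Hochberg over all tested probe sets, with 0.05 as the threshold, and intervals are 95%. The RU486 comparison averages 4 pairs within the second experiment.

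The labels put arrays of the same number in the same experiment. Deviations of the first experiment from the group means correlated between groups at 0.512 to 0.567, replicates correlated at 0.946 to 0.950, and 0 values were identical between replicates. Named were the 10 genes, in each list up to 4 called genes with the widest RU486 difference together with at most 2 uncalled genes, those brightest on average, and genes of the stress lists called for a steroid. Beyond this rule, Edem1 and other single calls are named where they make up a small count, and not every gene the rule allows is named. The stress genes, lists and tests were chosen with earlier results of these data known. Promoters are RefSeq's, from a table of build GRCr8. The fit was tested on simulated data with known changes.

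Alternatives were quantile and trimmed-mean scaling, other pseudocounts and filters, no trend, no block, fewer arrays and leaving out each array in turn.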

Additional observations from a re-analysis of the deposited data

Results flagged for a closer look

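Several differences between conditions had opposite signs on every array of the 2 conditions compared, and for each the difference was not tested. Ddit3 was below vehicle with CVZ and above it with ALD in both experiments, a CVZ response minus ALD response of −0.42 on the log2 scale, averaged over the experiments. Psat1 was at or above vehicle with CVZ and below it with COR and ALD in both, a CVZ response minus COR response of 0.17 and minus ALD response of 0.22. These comparisons share the vehicle arrays. For Nupr1 the RU486 difference was positive with vehicle and slightly negative with COR, 0.70 apart, on 1 pair of arrays each. No group had enough arrays for a test of outlying samples.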

How the results depend on the processing

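The median RU486 difference of the 10 genes, 0.61, stayed between 0.58 and 0.67 with any second-experiment array left out. Leaving out either array of a pair removes the same pair. None of the 10 genes' mean differences changed sign in 80 recomputations. The genes were chosen by this difference, so its steadiness is a description and no support for it. The lower Psat1, Nupr1 and Asns of the second experiment were called in all 60 recomputations. Of the 37 comparisons of the 10 genes that were not called, 10 of 766 recomputations gave a call. In 2 of the 10 the sign was reversed: Atf4 in the second minus first experiment, −0.05, was 0.23 after quantile normalization and 0.15 after trimmed-mean scaling.

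Counts of called probe sets moved more. For RU486 the count was 748, against 484 without a filter, 4 without the mean-variance trend, 11 without the replicate block, 25 in the second experiment alone, and 119 (without the CVZ array of the second experiment) to 1042 (without its vehicle array) with 1 array left out, being 151 without the CVZ plus RU486 array, 319 without the second-experiment COR array and 432 without the COR plus RU486 array. For CVZ it was 1483, against 646 without the trend, 215 without the block and 994 to 1550 with 1 array left out. For COR it was 632, against 117 without the trend, 41 without the block and 341 (without the COR array of the first experiment) to 692, being 381 without that of the second. For ALD it was 177, against 15 without the trend, 13 without the block and 117 (without the second vehicle array) to 186. The experiments differed in 7245 probe sets, 5874 to 7273 with 1 array left out. Scaling moved the share of higher calls for ALD (91.5%, 80.2% after quantile normalization) and, after trimmed-mean scaling, for CVZ (59.9%, 49.2%) and COR (71.8%, 61.5%). Among single genes, Farsb in the RU486 comparison was −0.0050 without the replicate block (0.38 with it), and Myh6 was 0.036 after quantile normalization (−0.20 otherwise). The cause of these changes was not tested. With 1 RU486 array per group, the errors of RU486 differences rest on the other groups.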

Other observations

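Genes of other programs also differed with RU486. Of 11 tested genes of the oxidative stress response run by the factor NRF2, 5 rose and 0 fell (median log2 difference 0.47). Of all tested probe sets 1.85% were called higher. Hmox1 averaged 16.6 ± 2.42 with RU486 and 7.92 ± 0.647 without (SD over the 4 backgrounds), 1.05 ± 0.08 in the limma fit (SE, adjusted p = 3.4e-06), and passed with any array left out. Srxn1, which reduces oxidised peroxiredoxins, rose by 0.71 and Gclm by 0.51, while Nqo1 (−0.22) and Txnrd1 (0.11), classical targets of the same factor, did not pass. The pair differences of Srxn1 ran from 0.14 with ALD to 1.35 with CVZ. With CVZ alone Srxn1 was lower than with vehicle, at −0.91 (limma, adjusted p = 0.00041), and the list median was −0.30. The 5 rises with RU486 became 1 without the CVZ array of the second experiment, 2 without the CVZ plus RU486 array and 3 without the COR or COR plus RU486 array.

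Of 17 tested glucocorticoid receptor targets, 13 were lower with RU486 and 0 higher (median −0.80), where 2.16% of all tested probe sets were called lower. The count of 13 averages backgrounds with and without a steroid, and was 3 without the CVZ or CVZ plus RU486 array of the second experiment. Fkbp5, a receptor co-chaperone, averaged 4.21 ± 1.29 with RU486 and 21.9 ± 18.1 without, and Klf9 averaged 12.4 ± 0.882 with RU486 and 28.1 ± 14.4 without. Both passed with any array left out (limma, adjusted p = 1.6e-07 and 1.8e-06). Both were lower with RU486 in the steroid pairs only. With RU486 alone, against vehicle, Fkbp5 had 2.40 against 2.17 and Klf9 had 11.2 against 10.6. Of 8 p53 targets, 3 were lower, among them the cell cycle inhibitor Cdkn1a (−0.83), which rose with the steroids alone by 1.53 (CVZ), 1.00 (COR) and 0.53 (ALD). The count was 1, Cdkn1a, without the CVZ or CVZ plus RU486 array, and 2 without the COR or COR plus RU486 array. Cdkn1a, Sesn1 and Ccng1, the 3 called, were lower with RU486 in the steroid pairs only. With RU486 alone, against vehicle, Cdkn1a had 13.1 against 12.4, Sesn1 11.6 against 5.74 and Ccng1 76.8 against 68.6.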
